A study of Mus musculus with 18 samples.

Results

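Mouse embryonic stem cells carrying an Oct4-VP16 fusion were compared with cells carrying Oct4 itself while both were kept in leukaemia inhibitory factor (LIF). The comparison rests on 4 of the 18 arrays of the series, 2 for each line, chosen by their sample titles, and 2 arrays of the parental line ZHBTc4 with LIF served as an outside reference. All cells were 129/Ola embryonic stem cells sampled 24 h after plating. ZHBTc4 carries an oct4 transgene that tetracycline shuts off, and both other lines derive from it. The Oct4VP2 cells received an oct4-vp16 construct by electroporation and random integration and were plated at 250000 cells a flask with LIF, tetracycline and 2 ug/ml puromycin. The Oct4 cells with LIF are labelled as lines Oct4 (4) and Oct4 (5), with a knock-in as the genetic modification, and were plated at 200000 cells with LIF. Their labels mention neither tetracycline nor puromycin, which the labels of the Oct4 cultures without LIF do. The labels of those cultures without LIF carry no line number and differ in the modification too. Whether they are the same lines as Oct4 (4) and Oct4 (5) is not known. The ZHBTc4 cells were plated at 200000 cells with LIF, also with no mention of tetracycline, so it is not known from the labels whether the lines differed in the 2 drugs as well as in the construct. Per the series text, replicates are independent clones of a line. Whether the same clones were sampled at the later times is not stated.

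Oct4, encoded by Pou5f1, is the POU-domain transcription factor on which the pluripotent state of these cells depends, and its loss lets them become trophectoderm. It can activate some of its target genes and repress others. VP16 is the activation domain of a herpes virus protein, a strong general activator, and joining it to a DNA-binding factor gives a protein that mainly activates. LIF signals through STAT3 and holds mouse embryonic stem cells in self-renewal, so the cells compared here were all under conditions that favour the undifferentiated state. Every value below is the log2 ratio of a sample's signal over a common reference RNA pooled from mouse cell lines, for 60-base probes, and a difference of 1 on this scale is a 2-fold difference.

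The deposited probes carry design numbers and no gene names. The probe for Pou5f1, the lists of pluripotency, trophectoderm and other lineage genes, and the markers that would check the cell type were therefore not analysed here, except Acta2. Sequence stands in for a name for the probes with the largest differences. The first pair was higher in Oct4VP2 and the second pair lower, and capitals mark ATTAAA, a common variant of the polyadenylation signal, where it occurs.
Z00043435-1: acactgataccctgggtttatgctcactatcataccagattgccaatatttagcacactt
Z00036011-1: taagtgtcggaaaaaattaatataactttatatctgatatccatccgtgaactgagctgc
Z00063386-1: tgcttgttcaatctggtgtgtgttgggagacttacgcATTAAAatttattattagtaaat
Z00063266-1: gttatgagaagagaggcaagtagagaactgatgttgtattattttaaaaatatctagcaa

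Of 31728 probes tested, 2884 (9.09%) differed between the lines by at least 2-fold at an adjusted p under 0.05 (limma, Benjamini-Hochberg). Oct4VP2 was higher in 1621 of them (5.11%) and lower in 1263 (3.98%). The median difference was 1.49 among the higher probes and -1.56 among the lower ones, against 0.07 over all probes tested. Differences of at least 4-fold were held by 442 higher and 357 lower probes, and of at least 8-fold by 129 and 77. With normexp background correction and loess within arrays, in place of the scanner's own processing, 711 probes were higher and 589 lower, and 1135 of these 1300 were among the 2884 with the same direction. On the 4 arrays alone no probe (0) passed the adjusted threshold in limma, while 7588 probes (23.9%) had an unadjusted p under 0.05. On the 6 arrays with LIF, ZHBTc4 included, 1144 were higher and 858 lower, and 1861 of these 2002 were among the 2884.

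**Figure D1:**
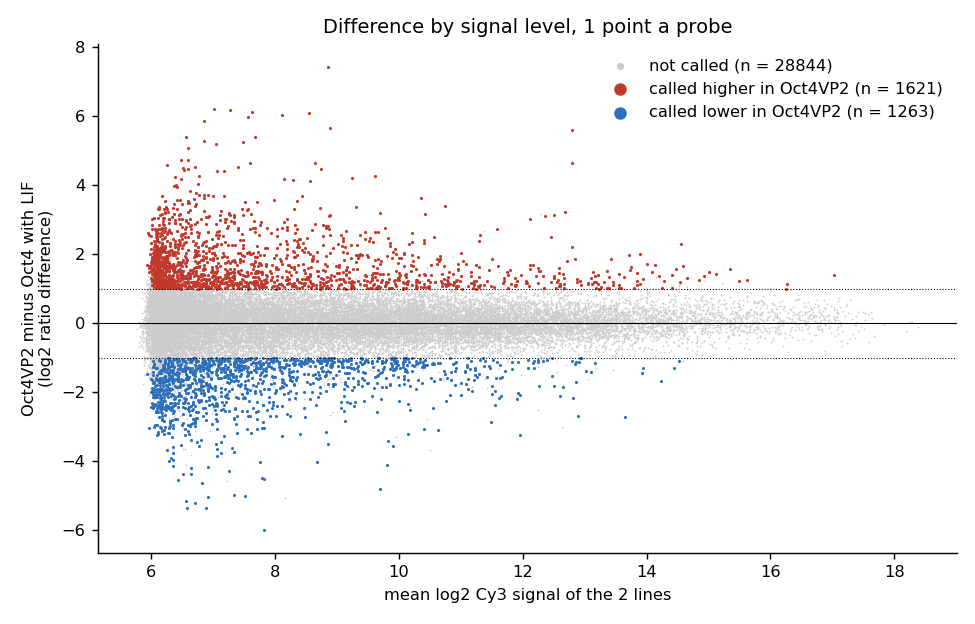
Difference between Oct4VP2 and Oct4 with LIF (vertical, log2) against the mean log2 Cy3 signal of the lines (horizontal), 1 point a probe, with the 2-fold lines dotted. The 1621 probes called higher and the 1263 called lower lie mostly at low and middle signal, and the topmost point is Z00043435-1 at 7.41.

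Many of these differences involved a signal that was near background in the lower line. In 408 of the 1621 higher probes the Oct4 arrays were not well above background, and in 129 of the 1263 lower probes the Oct4VP2 arrays were not. Over all 31728 probes tested, 2091 were dim in this way in Oct4 alone, 558 in Oct4VP2 alone and 1192 in both lines. Both lines were dim in 26 higher and 28 lower probes, for which no fold is meaningful. Such a probe has only a lower bound, the bright line's mean over the lowest signal that was well above background, and this bound reached 2-fold in 32 of the 408 and 6 of the 129. With these probes at their bound, and those dim in both lines left out, the medians were 1.22 and -1.39. With the probes split into 4 equal groups by Cy3 level, 10.4% and 12.8% were called in the 2 dimmest groups, 9.01% in the next and 4.14% in the brightest.

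The arrays of each line resembled each other more than those of the other line. The Oct4VP2 pair correlated with r = 0.949 over the probes and the Oct4 pair with r = 0.937, while pairs across the lines lay between 0.871 and 0.895. The standard deviation of the log2 differences over probes was 0.62 and 0.68 within the lines and 0.89 to 0.98 across them. The arrays of each pair also shared a slide. Replicate 2 of Oct4 correlated with the ZHBTc4 arrays (0.931 and 0.934) nearly as well as with the other Oct4 array. For replicate 1 of Oct4 these values were 0.903 and 0.907. These correlations describe the arrays, since probes are not replicates and all arrays share the reference RNA. Between 62.9% and 72.3% of the probes were well above background in Cy3 on the 4 arrays. In the Cy5 channel, which held the reference RNA, the same test called 123 probes (0.388%), and 23 of them were among the 2884.

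Line and scan session coincided. Both Oct4VP2 arrays with LIF were scanned in the first of 2 sessions, and the Oct4 and ZHBTc4 arrays with LIF in the second, so the session's part in the difference cannot be told apart from that of the line on these arrays. A session term could be estimated only from ZHBTc4 without LIF. An adjusted p under 0.05 for it was found in 1004 of all probes (3.16%) and in 43 of the 2884 (1.49%). In ZHBTc4 without LIF, at both times, replicate 1 was scanned in the first session and replicate 2 in the second, on another slide. The term therefore cannot be told apart from a difference between those replicates or slides, in any fit that uses it. The same replicate differences enter the spread of the main fit, so probes with a large term were harder to call. The shares of 3.16% and 1.49% thus do not show how far the session bears on the calls. With that term in the fit, 1630 probes were higher and 1335 lower, and 1629 of the 2884 calls were kept with the same direction. All Oct4VP2 and Oct4 arrays without LIF were scanned in the first session, so their comparison is free of the session overlap. Line and slide still coincided throughout. Cultures with LIF lay on slide 1 for Oct4VP2 and slide 5 for Oct4. The 48 h cultures lay on slides 1 and 2, and the 120 h cultures on slides 2 and 3, in the same order. The slide's part therefore cannot be told apart from that of the line in any of these comparisons.

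Z00043435-1 had the largest difference measured in both lines. Its log2 ratios were 0.66 and 0.43 on the Oct4VP2 arrays, -6.79 and -6.95 on the Oct4 arrays, and -4.52 and -4.59 on the ZHBTc4 arrays. The Oct4VP2 arrays stood far above all the others, with no overlap. The difference of 7.41 (SE 0.27, n = 2 arrays a line, limma adjusted p = 4.7e-07) is 171-fold, and it was 6.25 (SE 0.27) at 48 h and 4.45 (SE 0.27) at 120 h without LIF. Between the conditions with LIF and at 120 h the difference itself shrank by 2.96 (limma adjusted p = 0.00077). With normexp and loess the LIF difference was 5.33.

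Z00036011-1 was bright in Oct4VP2 alone. Its ratios were -0.74 and -0.68 on the Oct4VP2 arrays against -7.21 and -6.63 on the Oct4 arrays and -5.63 and -6.01 on the ZHBTc4 arrays. Neither Oct4 nor ZHBTc4 was well above background with LIF, so its LIF difference is at least 4.55-fold (fitted 6.21, SE 0.60, limma adjusted p = 0.00015). The fitted difference was 5.50 at 48 h and 5.74 at 120 h. With LIF it was 2.24 with normexp and loess and 4.32 with the scan session in the fit.

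Z00063386-1 showed the opposite arrangement. The Oct4VP2 arrays lay at -5.10 and -4.75, the Oct4 arrays at 0.59 and 1.52, and the ZHBTc4 arrays at 1.04 and 1.11. The probe was well above background on 1 of 2 Oct4VP2 arrays, and its difference was -5.98 (SE 0.59, limma adjusted p = 0.00017), with -5.17 at 48 h and -5.43 at 120 h. With normexp and loess its LIF difference was -3.37.

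Z00063266-1 was also low in Oct4VP2, at -5.09 and -4.41, against -0.14 and 1.33 on the Oct4 arrays and -0.78 and -0.88 on the ZHBTc4 arrays. Neither Oct4VP2 array was well above background, so Oct4VP2 was at least 3.67-fold lower (fitted -5.34, SE 0.89, limma adjusted p = 0.0028). With normexp and loess its LIF difference was -1.45, smaller in size than that bound. In Oct4 cells the ratio was 1.80 and 1.20 at 48 h and 4.99 and 4.64 at 120 h. In Oct4VP2 cells it was -3.38 and -3.70 at 48 h and 0.24 and -3.53 at 120 h, so the clones lay far apart at the last time. These 4 probes kept their direction in every alternative that tested them, and their call in all but the fit on the 4 arrays alone.

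**Figure D2:**
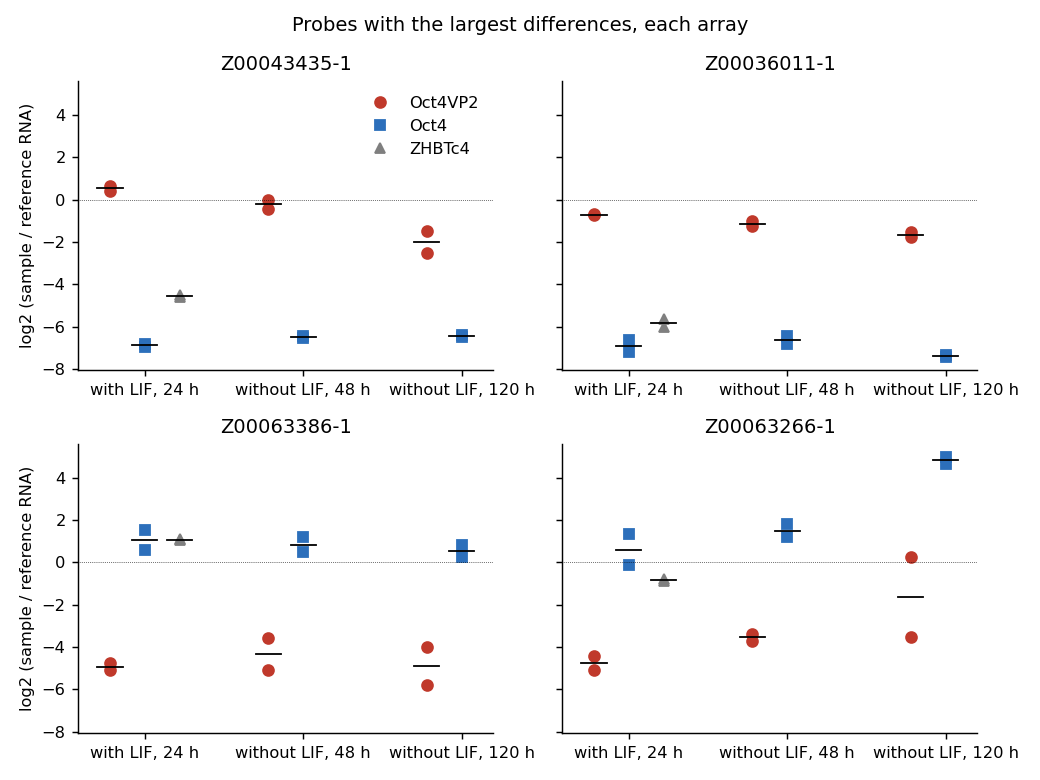
Log2 ratio of sample over reference RNA (vertical) for 4 probes in Oct4VP2, Oct4 and, with LIF, ZHBTc4; each point is an array and each bar the mean of 2. With LIF, Z00043435-1 lies at 0.66 and 0.43 in Oct4VP2 and below -4 elsewhere, and the lines stay apart in all 4 panels at 48 h and 120 h.

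The line difference with LIF carried over in part to arrays taken without it, which share no sample with the LIF arrays. The calls are still not independent, since 1 estimate of each probe's spread, from all 18 arrays, serves every comparison. A probe with a small spread is more easily called each time, which can raise the shares called again above those of all probes. How far it did so was not tested. At 48 h the Oct4VP2 arrays also lay on the same slide as those with LIF. Anything particular to that slide enters both differences, and its part in the shares called again was not tested. At 48 h 10.2% of all probes were called between the lines in either direction, and at 120 h 18.7%. Of the 1621 higher probes, 1321 (81.5%) were also higher at 48 h and 1115 (68.8%) at 120 h, against 48.1% and 48.3% of all probes tested. Calls in the same direction were made for 671 (41.4%) at 48 h, where 5.12% of all probes were called higher, and for 585 (36.1%) at 120 h, where 9.92% were. Their median difference was 0.89 at 48 h and 0.58 at 120 h.

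The lower probes did much the same. Of 1263, 1129 (89.4%) were also lower at 48 h and 894 (70.8%) at 120 h, against 51.9% and 51.7% of all probes tested. Calls in the same direction were made for 612 (48.5%, background 5.07%) and 404 (32.0%, background 8.82%), and the medians were -1.12 and -0.55. Calls in the opposite direction were few at 48 h, 10 of the higher and 8 of the lower probes, and more at 120 h, 82 and 102. At both later times 412 higher and 309 lower probes were called again, while 701 higher (43.2%) and 472 lower (37.4%) were called at neither. Over all probes tested 3.0% were called higher at both times, 2.32% lower at both, and 76.7% at neither.

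**Figure D3:**
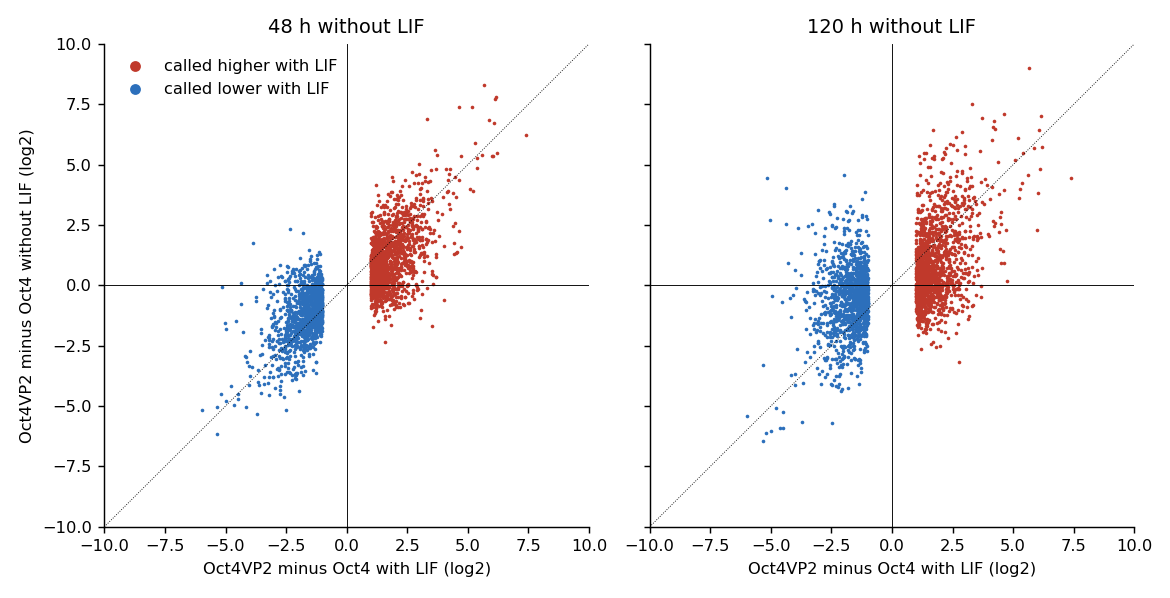
Oct4VP2 minus Oct4 difference (log2) with LIF (horizontal) against that at 48 h (left) and 120 h (right) without LIF (vertical) for the 2884 called probes; the dotted line marks equal differences. Of the 1621 higher probes 1321 lie above 0 at 48 h and 1115 at 120 h, and of the 1263 lower ones 1129 and 894 lie below 0.

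Larger differences were found again more often. Among higher probes, the share called again at 48 h was 34.0% at 2 to 4-fold, 56.2% at 4 to 8-fold and 72.9% at 8-fold or more, and at 120 h it was 28.8%, 49.5% and 69.8%. Among lower probes the shares were 42.8%, 61.4% and 67.5% at 48 h and 29.5%, 36.4% and 45.5% at 120 h. Probes that were also called with normexp and loess, 631 higher and 504 lower, were called again at 48 h in 59.7% and 56.7%, and at 120 h in 47.9% and 35.9%. Probes measured in both lines gave 44.9% (higher) and 46.7% (lower) at 48 h.

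**Figure D4:**
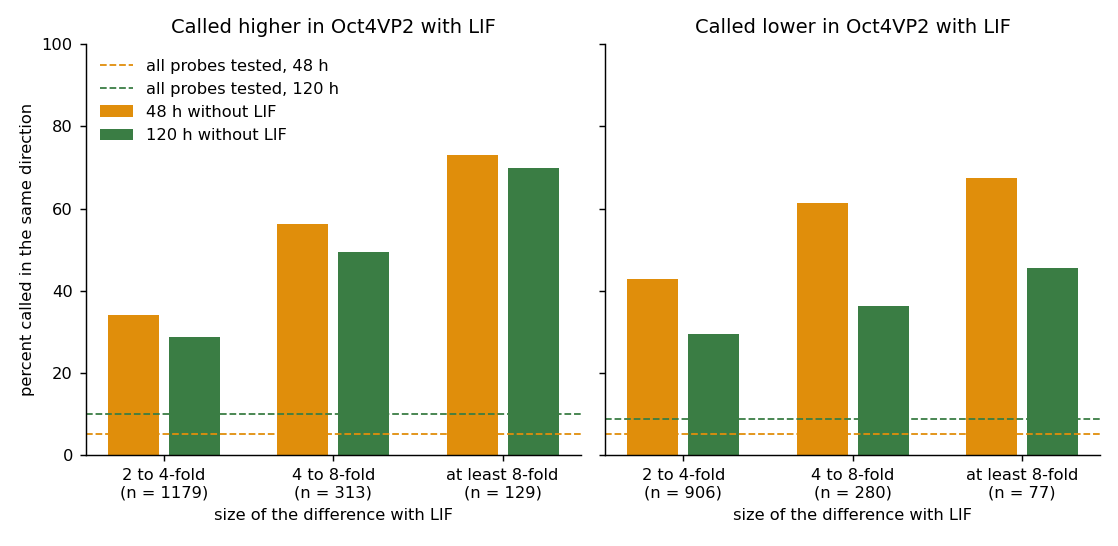
Percent of the probes called with LIF that were called in the same direction at 48 h and at 120 h without LIF (bars), by direction and size of the LIF difference; dashed lines give the percent called among all 31728 probes. Every bar lies above its dashed line, from 28.8% to 72.9%. The calls at all times use the same estimate of each probe's spread, which can raise the bars.

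The change in the line difference between conditions was tested as well. In these contrasts LIF, time in culture, the scan session of the Oct4 arrays and the drugs and modification in the Oct4 labels all change together. The difference with LIF departed from that at 48 h in 512 probes (1.61%), of which 144 were among the 1621 higher and 42 among the 1263 lower, in the direction of a larger difference with LIF. Over all probes 0.971% passed in the first direction and 0.643% in the second. Without replicate 1 of the Oct4 cells with LIF this count was 84, without their replicate 2 it was 1161, and without replicate 1 of Oct4VP2 it was 329, so it rests on single arrays. With the scan session in the fit it was 374, and 167 of the 512 were kept with the same direction. Against 120 h, 5302 probes (16.7%) passed, with 582 of the higher and 446 of the lower ones showing the larger difference with LIF, against 8.95% and 7.76% of all probes. Adding the scan session gave 4975, and 3498 of the 5302 were kept. In both contrasts the 1621 and 1263 probes had been chosen by their difference with LIF, which is itself part of the contrast. That choice alone favours larger differences with LIF among them. Their shares beside those of all probes therefore do not by themselves show a larger difference with LIF.

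Both lines were also set beside the parental line, whose arrays enter both of the comparisons that follow. The 1621 and 1263 probes had been chosen by the difference between Oct4VP2 and Oct4 on the same arrays of those lines. That choice alone tends to place the lines on opposite sides of ZHBTc4 and to raise the counts. The values for these probes are therefore descriptive only. For the 1621 higher probes the median of Oct4VP2 minus ZHBTc4 was 0.96 and that of Oct4 minus ZHBTc4 was -0.57. For the 1263 lower probes the medians were -0.88 and 0.70. Oct4VP2 alone was called apart from ZHBTc4 in 573 higher and 399 lower probes, Oct4 alone, on the other side, in 293 and 222, both in 38 and 7, and neither in 717 and 635. Over all probes, 2340 (7.38%) were called between Oct4VP2 and ZHBTc4, 4.27% higher and 3.1% lower. Between Oct4 and ZHBTc4 1380 (4.35%) were called, 1.98% higher and 2.37% lower. Only the second of these compares lines from a single scan session, and it fell to 707 calls without replicate 1 of Oct4.

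In sequence, the lower probes had a lower GC content than the rest, and the main polyadenylation signal was about as frequent in called probes as over the array. The median GC content was 45.0% in the higher probes and over all probes, and 41.7% in the lower ones. AATAAA, the main polyadenylation signal, was found on the probe's own strand in 7.59% of the higher, 7.68% of the lower and 7.34% of all probes. ATTAAA without AATAAA was found in 2.53%, 4.28% and 2.99%. TTTATT, the same signal read on the opposite strand, was found in 3.45%, 3.40% and 3.06%. A match is a run of letters and not a mapped site.

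Probes that overlap on the same strand gave a check of the measurement. There were 1062 pairs of probes that share at least 25 bases, and their differences correlated with r = 0.71. In 113 pairs at least 1 probe was called. Both were called in the same direction in 49 and in opposite directions in none (0), and in 54 of the other 64 the second probe had the same sign. For 48 pairs sharing 25 bases on opposite strands r was 0.21. Such pairs share sequence and are not independent.

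Genes could be named for a small part of the array. Probes were matched exactly to RefSeq promoter windows of GRCm38.p6, which run from 250 bases before to 50 after an annotated start, so that only probes at the very 5′ end of a transcript could be found. A symbol was given to 183 probes, and 120 of them, for 118 genes, were tested. Of the 120 probes, 7 were called higher and 3 lower in Oct4VP2 (8.33%, against 9.09% of all probes tested), 8 more had an adjusted p under 0.05 below 2-fold, and 102 had an adjusted p of 0.05 or above. With no fold minimum 19.7% of all probes had an adjusted p under 0.05. Their median difference was 0.08. The first 30 bases of the probes follow for the genes called, with capitals for bases at or after the annotated start and lower case for bases before it. Where the probe runs past the window, the rest of it was not seen.
Gstp1: TCTGAGTACCCCTCTGTCTACGCAGCACTG
H2ac18: AAAGAGTGAGGCGTCGGCGCCGGAGTACCG
Pitpnm2: TGAGGCGCGTGGGGGGCACGGCGGTGGCGC
Ttll3: TTTTTTCCCTTGCTGTCTTACAAGCCTCCT
Frg2f1: CTCCTGGCAATGGGAATTCTAAAGGTTTAT
Tpt1: gggcgtagccacgcccccgcaccgccctgc
Gm11295: gaagaggcacagagaacacgcagagaactc
Gm3194: AGCCAGAGAGCACCGTGTCCCTGCGCTCTG
Gm52042: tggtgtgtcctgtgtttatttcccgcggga

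Gstp1, a glutathione S-transferase that conjugates electrophiles, was higher in Oct4VP2. Its probe matched 49 bases at chr19:4037863-4037911 on the minus strand. The Oct4VP2 arrays gave -0.56 and -1.06 and the Oct4 arrays -1.76 and -2.25, without overlap, and the ZHBTc4 arrays gave -0.91 and -0.92. The difference was 1.19 (SE 0.34, limma adjusted p = 0.033). Oct4VP2 thus lay near ZHBTc4 (difference 0.11, adjusted p = 0.86) and Oct4 below it (-1.08, adjusted p = 0.078). The call was lost without replicate 1 of Oct4VP2 (0.94, adjusted p = 0.17), replicate 1 of Oct4 (1.44, adjusted p = 0.052) or replicate 2 of Oct4 (0.95, adjusted p = 0.16). It was also lost with the scan session in the fit (0.80, adjusted p = 0.28), with the slide as a random block (1.15, adjusted p = 0.070) and on the 6 arrays with LIF (adjusted p = 0.053). Gstp1 has close paralogues, so the probe may read more than 1 gene.

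H2ac18, a replication-dependent histone H2A gene, was also lower in Oct4 than in the other lines. Its probe matched 35 bases at chr3:96245512-96245546 on the plus strand. The values were 0.49 and -0.06 in Oct4VP2, -1.10 and -0.92 in Oct4 and -0.21 and 0.72 in ZHBTc4. The difference of 1.22 (SE 0.30, limma adjusted p = 0.017) went with a deficit of Oct4 against ZHBTc4 of -1.26 (adjusted p = 0.028), both of these lines being in 1 scan session. The signal was low, well above background on 1 of the 2 Oct4 arrays, and the call was lost without replicate 1 of Oct4VP2 (0.95, adjusted p = 0.12) or of Oct4 (1.14, adjusted p = 0.085) on the 6 arrays with LIF (adjusted p = 0.10), with Cy3 alone (0.87, adjusted p = 0.067) and with normexp and loess (0.32, adjusted p = 0.084). Near-identical histone genes could share this signal.

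Pitpnm2, which encodes a membrane-associated phosphatidylinositol transfer protein, was higher in Oct4VP2. Its probe matched 45 bases at chr5:124249711-124249755 on the minus strand. Oct4VP2 gave 0.99 and 1.31, Oct4 0.16 and 0.13, and ZHBTc4 -0.31 and 0.28. The difference was 1.00 (SE 0.22, limma adjusted p = 0.011), and that from ZHBTc4 was 1.16 (adjusted p = 0.0075). At 48 h the line difference was -0.45 (adjusted p = 0.20), and the change of 1.45 between the conditions passed its own test (adjusted p = 0.045). Without replicate 2 of Oct4VP2 the LIF difference was 0.84 (adjusted p = 0.068), and it was 0.48 (adjusted p = 0.017) with normexp and loess. The call was also lost with the scan session in the fit (0.87, adjusted p = 0.094) and on the 6 arrays with LIF (adjusted p = 0.069).

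Ttll3, a tubulin glycine ligase gene whose start lies within the annotated span of Arpc4 on the same strand, had values of 1.77 and 2.57 in Oct4VP2 and 1.05 and 1.29 in Oct4. Its probe matched 40 bases at chr6:113389270-113389309, so signal from Arpc4 transcripts that run across it cannot be told apart. The difference of 1.00 (SE 0.30, limma adjusted p = 0.040) lost its call in 9 of 17 alternatives, among them without replicate 2 of Oct4VP2 (0.60, adjusted p = 0.24), replicate 1 of Oct4 (0.89, adjusted p = 0.16) or replicate 2 of Oct4 (1.12, adjusted p = 0.081), and with the scan session in the fit (0.74, adjusted p = 0.27). Frg2f1, at chr4:119538720-119538762 on the minus strand, gave 1.13 and 2.01 in Oct4VP2, 0.40 and 0.38 in Oct4 and 0.17 and 0.24 in ZHBTc4, a difference of 1.18 (SE 0.28, limma adjusted p = 0.015). It was 0.74 (adjusted p = 0.099) without replicate 2 of Oct4VP2, 1.19 (adjusted p = 0.060) without replicate 1 of Oct4 and 1.17 (adjusted p = 0.059) without replicate 2 of Oct4. With the scan session in the fit it was 0.75 (adjusted p = 0.19), on the 6 arrays with LIF its adjusted p was 0.077, and with normexp and loess it was 0.53 (adjusted p = 0.026).

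Tpt1, which encodes the abundant translationally controlled tumour protein, was represented by a probe at chr14:75845205-75845264 that lies mostly before the annotated start and reaches into the gene with its last bases. The values were -0.26 and -0.65 in Oct4VP2, -1.80 and -1.22 in Oct4 and -1.27 and -0.96 in ZHBTc4. The difference was 1.06 (SE 0.28, limma adjusted p = 0.024) with LIF, -0.42 (adjusted p = 0.35) at 48 h and -0.26 (adjusted p = 0.51) at 120 h. The call was lost without replicate 1 of Oct4VP2 (0.87, adjusted p = 0.14) or of Oct4 (0.77, adjusted p = 0.16), on the 6 arrays with LIF (adjusted p = 0.074) and with Cy3 alone (0.47, adjusted p = 0.42). With the scan session in the fit the difference was 1.67 (adjusted p = 0.0098). Gm12236 was called too, but its probe was not well above background on any of the 6 arrays with LIF, and no difference is given for it.

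The 3 genes called lower in Oct4VP2 are predicted genes. Gm11295, at chr13:22282309-22282368 with its probe starting before the annotated start, gave 2.23 and 2.03 in Oct4VP2, 3.58 and 3.44 in Oct4 and 3.51 and 3.54 in ZHBTc4. Oct4VP2 stood apart from both other lines, which lay together. The difference of -1.38 (SE 0.20, limma adjusted p = 0.0013) lost its call in the fit of the 4 arrays alone (adjusted p = 0.096) and in no other alternative run. It was -0.21 (adjusted p = 0.52) at 48 h and 0.04 (adjusted p = 0.90) at 120 h, when Oct4VP2 cells had reached 3.46 and 3.33.

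Gm3194, whose probe matched 31 bases at chr14:5460361-5460391 on the minus strand, gave 1.92 and 2.10 in Oct4VP2, 3.70 and 3.84 in Oct4 and 3.47 and 2.58 in ZHBTc4. Its difference was -1.76 (SE 0.32, limma adjusted p = 0.0041) with LIF, -0.81 (adjusted p = 0.10) at 48 h and -0.50 (adjusted p = 0.25) at 120 h. With the scan session in the fit it was -1.44 (adjusted p = 0.056). Gm52042, at chr13:25007677-25007736 within the annotated span of Mrs2, gave -0.59 and -1.50 in Oct4VP2, 0.74 and 0.66 in Oct4 and 0.34 and 0.42 in ZHBTc4. Its difference was -1.75 (SE 0.41, limma adjusted p = 0.015), and at 48 h it was -1.92 (SE 0.41, adjusted p = 0.0084), whereas at 120 h it was 0.18 (adjusted p = 0.77). The LIF call was lost without replicate 2 of Oct4VP2 (-1.29, adjusted p = 0.097), replicate 1 of Oct4 (-1.70, adjusted p = 0.065) or replicate 2 of Oct4 (-1.79, adjusted p = 0.051) and with the scan session in the fit (-1.06, adjusted p = 0.20).

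**Figure D5:**
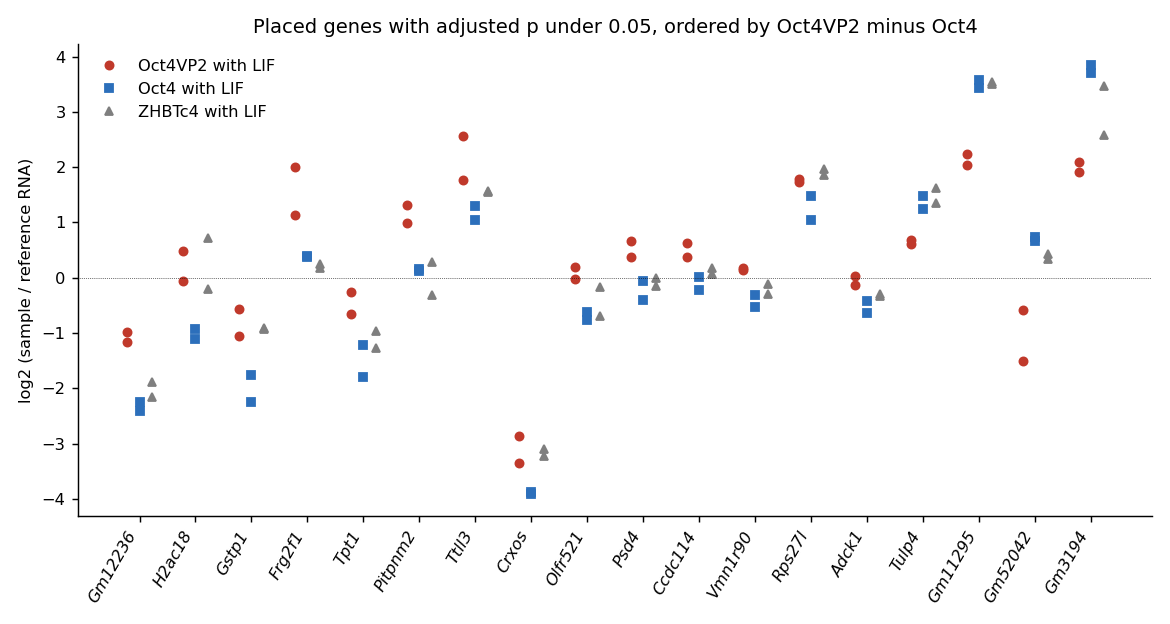
Log2 ratio of sample over reference RNA (vertical) on each array with LIF for the 18 placed genes with an adjusted p under 0.05, ordered by the Oct4VP2 minus Oct4 difference; each symbol is an array, 2 for each line. Oct4VP2 and Oct4 do not overlap in any of the 18, as in 59.4% of all probes tested, and Gm12236 is not well above background in any line.

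Smaller differences below 2-fold passed the adjusted threshold in 8 placed genes. Crxos, a homeobox gene expressed in early embryos and embryonic stem cells, gave -3.35 and -2.87 in Oct4VP2, -3.92 and -3.87 in Oct4 and -3.23 and -3.10 in ZHBTc4. Oct4VP2 overlapped ZHBTc4, and Oct4 lay below both. The difference was 0.78 (SE 0.17, limma adjusted p = 0.0092) with LIF, 0.44 (adjusted p = 0.095) at 48 h and 0.86 (adjusted p = 0.0024) at 120 h. Without replicate 2 of Oct4VP2 the LIF difference was 0.54 (adjusted p = 0.061), on the 6 arrays with LIF its adjusted p was 0.070, and with the scan session in the fit it was 1.07 (adjusted p = 0.0098). Its probe matched 47 bases at chr7:15896127-15896173, at an internal start of the gene.

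Tulp4, a member of the tubby-like family, was lower in Oct4VP2 under all conditions. Its values with LIF were 0.69 and 0.61 in Oct4VP2, 1.24 and 1.47 in Oct4 and 1.35 and 1.62 in ZHBTc4. The difference was -0.70 (SE 0.14, limma adjusted p = 0.0057) with LIF, -0.60 (adjusted p = 0.011) at 48 h and -0.64 (adjusted p = 0.0039) at 120 h, and with normexp and loess the LIF difference was -0.42 (adjusted p = 0.066). On the 6 arrays with LIF its adjusted p was 0.060, and with the scan session in the fit it was -0.71 (adjusted p = 0.034). Its probe, at chr17:6137920-6137979, lies before an internal start.

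The other 6 were higher in Oct4VP2, and for them a call here means an adjusted p under 0.05 alone. Rps27l, a ribosomal protein S27-like gene induced by p53, differed by 0.52 (limma adjusted p = 0.045), and the olfactory receptor gene Olfr521 by 0.78 (adjusted p = 0.047). Psd4, an exchange factor for Arf6, differed by 0.74 (adjusted p = 0.016) and Ccdc114, a docking component of ciliary dynein arms, by 0.61 (adjusted p = 0.013). The vomeronasal receptor gene Vmn1r90 differed by 0.58 (adjusted p = 0.021) and the kinase-like gene Adck1 by 0.48 (adjusted p = 0.035). Each of these 6 calls was lost without replicate 1 of Oct4, where the differences ran from 0.30 for Rps27l to 0.86 for Olfr521, and without replicate 1 of Oct4VP2, where they ran from 0.40 for Adck1 to 0.89 for Olfr521. Those of Adck1 (0.55), Olfr521 (0.67), Rps27l (0.49) and Vmn1r90 (0.57) were lost without replicate 2 of Oct4VP2, and those of Adck1 (0.58) and Olfr521 (0.70) without replicate 2 of Oct4. The calls of Rps27l, Olfr521, Vmn1r90 and Adck1 were lost with the scan session in the fit (adjusted p = 0.22, 0.47, 0.076 and 0.074). None of the 6 had an adjusted p under 0.05 at 48 h, and at 120 h Olfr521 was lower in Oct4VP2 (-0.95, adjusted p = 0.012).

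The 102 placed probes with an adjusted p of 0.05 or above include genes of general cell function, and the examples here were chosen after their values were seen. Rpl38, a large-subunit ribosomal protein gene with 2 probes, gave differences of -0.60 and -0.61 with LIF (limma adjusted p = 0.054 and 0.080) and -1.36 and -1.28 at 48 h (adjusted p = 0.00096 and 0.0029). Its 2 probes parted at 120 h, at -0.73 and -0.06. Fau, which encodes a ubiquitin-like protein fused to a small-subunit ribosomal protein, gave 0.13 and -0.27 from 2 probes with LIF. The difference was -0.06 for Rpl10a, 0.05 for Mif, -0.09 for Nme2, -0.68 (adjusted p = 0.19) for the chaperonin gene Hspd1 and 0.37 (adjusted p = 0.13) for H3f3a. Acta2, a smooth muscle actin gene on the list of fibroblast genes, was well above background on 1 array of each line and differed by 0.30 (adjusted p = 0.56). In RNA from whole cultures, fewer cells of a kind and less RNA in each cell cannot be told apart.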

How the data were processed

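The samples were RNA of mouse embryonic stem cell cultures, hybridised in Cy3 against a universal mouse reference RNA in Cy5. Per the file headers, the authors extracted the scans in Agilent Feature Extraction, version 9.5.1.1. The deposited intensity of each spot is background-subtracted with a spatial detrend and dye-normalised, and the deposited log10 ratio is Cy5 over Cy3, per the file headers. Here log2 of the Cy3 over the Cy5 processed signal was taken, so its sign is turned. A second, smaller table of values for 25030 probes was deposited as well. On every array 100% of its values lay within 0.001 of the log10 ratio once each probe was centred, the column medians were 2.33 to 2.36, and the constant added to each probe is unknown. Per the series text, the submitters' own cut-offs were 2-fold and an FDR of 0.05.

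Control spots and outliers were dropped and repeat spots averaged, leaving 42006 probes. Of these, 31728 were tested, namely those that both arrays of some group (of 9) detected well above the Cy3 background. Group means over the 18 arrays were estimated with limma 3.58.1 in R 4.3.3 (9 residual and 2.15 prior degrees of freedom), with Benjamini-Hochberg adjustment over all probes. A call needed an adjusted p under 0.05 and at least 2-fold. For single probes and placed genes in the alternative settings, a call is said to be lost when the adjusted p reached 0.05 or more. The 2-fold minimum was not applied there. Since 2 arrays a line limit the precision, p-values rest on the spread between the replicates of a group, pooled over groups. In each Oct4VP2 and Oct4 group both replicates lay on 1 slide and in 1 session. Slide and session differences between the lines are therefore not in their spread. In ZHBTc4 without LIF the replicates differed in slide and session as well as in clone. A bound for a dim probe came from Cy3 values after loess and quantile normalisation, and it is open to dye bias, as no dyes were swapped. On simulated data with 31727 probes, 48% of probes changed 2-fold and 74% of those changed 4-fold were recovered, and 6 unchanged probes were called. Recovery was counted by adjusted p alone, with 50 probes changed at each fold. The simulated noise was independent between arrays, with no effect of slide or session. The 6 therefore do not measure false calls from a slide or session shared by a line.

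The comparison and the lists were chosen with earlier results of these data known. The files do not pair probes with genes, so the 12 gene lists (296 genes) were not analysed here, except for Acta2, the only gene (1) with a placed probe, and the planned rule gave 2 probes in each direction. Placing probes by exact match of at least 30 bases to 32851 RefSeq promoter windows (GRCm38.p6) was added after seeing the files. All placed genes past the adjusted threshold are named. As a false match level, probe ends met the upstream edge of a window on the gene's strand 12 times, against 125 probes that read on past its downstream edge. On the opposite strand they met the upstream edge 26 times and the downstream edge 16 times. Matches of all 60 bases inside a window were no more frequent on the gene's strand (127 probes) than on the opposite strand (148). Tpt1, Gm11295, Gm52042, Tulp4, Psd4, Ccdc114 and Vmn1r90 were named by such a match, so their names are less certain.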

Additional observations from a re-analysis of the deposited data

Results flagged for a closer look

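The Oct4VP2 minus Oct4 difference departed between the conditions with LIF and at 48 h without LIF, by a test of that change in limma, in 512 probes. Among the placed genes measured with LIF these included Pitpnm2, with a change of 1.45 (adjusted p = 0.045). Against 120 h without LIF the change passed in 5302 probes.

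By the same test against 120 h, the difference of Z00043435-1 was 2.96 larger with LIF. The changes were 1.71 for H2ac18, 1.32 for Tpt1 and 1.15 for Pitpnm2. They were 1.73 for Olfr521, with LIF and 120 h differences of opposite sign (0.78 and -0.95), and 1.15 for Psd4. The Olfr521 probe was dim, well above background on only 1 of the Oct4 arrays with LIF. Its LIF call was lost with normexp and loess, with Cy3 alone and with median centring, among other settings. Among genes lower in Oct4VP2 with LIF, the changes were -1.42 for Gm11295 and -1.93 for Gm52042. All of these were picked by their difference with LIF, which favours changes in the direction of a larger difference with LIF. In each of these contrasts the Oct4 arrays with LIF were scanned in another session than the other 3 groups. With the session in the fit, 374 probes passed against 48 h, 167 of them among the 512 with the same direction, and 4975 against 120 h, 3498 of them among the 5302.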

How the results depend on the processing

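For counts past the threshold, settings that moved one by over 1.5 times are given here, with the probes past the threshold in either direction unless said. Normexp with loess gave 711 higher and 589 lower probes with LIF, 1938 at 48 h, 3225 at 120 h, 3368 for the change between LIF and 120 h, 1073 for Oct4VP2 and 688 for Oct4 against ZHBTc4. In those last comparisons the share of calls that were higher was 35.4% and 24.1%, against 57.9% and 45.4%. The deposited value table (19438 probes tested) gave 3519 for the change between LIF and 120 h. The 4 arrays alone gave 0 higher and 0 lower in limma, with 7588 probes at an unadjusted p under 0.05. The 6 arrays with LIF gave 1360 and 489 against ZHBTc4 for Oct4VP2 and Oct4. Without a filter on dim probes, 335 probes passed for the change between LIF and 48 h, and with the slide as a random block 310. With the scan session as a block, 1408 passed for Oct4VP2 against ZHBTc4. With no fold minimum, 3626 were higher and 2623 lower with LIF, 5853 passed at 48 h, 11351 at 120 h, and 4993 and 2556 against ZHBTc4; at 1.5-fold the same counts were 2990, 2189, 5104, 9492, 4227 and 2271. Leaving out each array in turn gave 1260 to 1515 higher and 994 to 1210 lower probes with LIF, 84 to 1161 for the change against 48 h, and 707 to 1757 for Oct4 against ZHBTc4. Similar totals do not mean that the same probes were called. In each fit without 1 array with LIF of either line, many of the main LIF calls were not made again in the same direction. Cy3 alone gave 1865 higher and 1768 lower probes with LIF. Of these 3633, 2181 were among the 2884 main calls with the same direction. For the placed genes and single probes, no alternative turned a sign. Array-wise median centring kept the LIF counts at 1521 and 1329. The replicate numbers were not treated as pairs in the main fit. The r of the paired deviations was 0.138 between Oct4VP2 and Oct4 with LIF. Over all 36 pairs of groups it was -0.125 to 0.392, with 6 pairs over 0.1. The 0.138 compares different lines, so it cannot show whether clones recur within a line. With a replicate block 2935 probes passed with LIF, 2799 of them the same. Medians of gene lists were not run, for lack of names. Dim signals limit the fold of 408 higher and 129 lower probes to a bound.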
